A study of Mus musculus with 2 samples.

Results

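Cytochrome P450 genes were examined in single cells of the esophageal epithelium of C57BL/6 mouse embryos at stage E18.5, shortly before birth. The rule took every gene whose symbol is Cyp followed by a family number, a subfamily letter and a gene number, without Cyp2f2 and Cyp26a1. It found 92 genes among the 32285 of the deposited tables. There were 2 libraries. The one labelled wild type has the genotype p63-CreER, so by their label these controls carried the p63-CreER allele too. The one labelled p63-KO has the genotype p63-CreER/p63-CreER and came from littermates. Both libraries contained female cells, by Xist RNA, and male cells, by RNA of Y-linked genes, and so came from more than 1 embryo each. With 1 library per group there was no replicate and no test between groups. Every interval covers counting error only, and every difference is one between these libraries.

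P450 enzymes are haem proteins that insert an oxygen atom into small, mostly fat-soluble molecules, with electrons passed on by a reductase (Por) in the endoplasmic reticulum or by ferredoxin (Fdx1) in mitochondria. Families 1 to 3 hold many of the enzymes that act on drugs and other foreign compounds, family 4 hydroxylates fatty acids, and others make or break down bile acids, steroid hormones, vitamin D and retinoic acid. In the esophagus they are known above all for turning nitrosamines into DNA-binding products. Trp63 encodes p63, the factor that basal cells of layered epithelia depend on.

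After filtering and removal of scored doublets 5519 wild-type and 2375 p63-KO cells remained, with medians of 10920 and 19353 UMIs (unique molecular identifiers, each standing for 1 captured transcript). Epithelial-like cells, with the markers Epcam, Cdh1 and keratins, made up 5370 and 1682 of them and had medians of 11045 and 25279 UMIs. The p63-KO library also held 510 fibroblast-like, 75 smooth muscle or pericyte-like and 71 endothelial-like cells. The libraries shared 8 cell barcodes, of which 5 were among the kept cells. Levels are given as CPM, the UMIs of a gene summed over a group of cells and scaled to a total of 1000000. In epithelial-like cells Trp63 stood at 303 CPM in the library labelled wild type and at 119 CPM in the other. The assay counts the 3' ends of transcripts, which may lie outside the changed part of the gene, so this does not check the genotype. A list of 10 basal cell markers summed to 12743 CPM in wild type and to 5436 CPM in p63-KO, where the subclusters ran from 492 to 8569 CPM.

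Of the 92 P450 genes, 20 had no UMI in any kept cell, 36 had 1 to 9 UMIs and 36 had 10 or more. Only 12 reached 5 CPM in the epithelial-like cells of either library, the level from which a gene is called measured here. Just inside that limit stood Cyp4f16, with 8.23 CPM in its higher library, Cyp2t4 with 8.58 and Cyp4f17 with 8.65. Just outside stood Cyp2w1 with 3.98 CPM, Cyp4v3 with 3.89 and Cyp2r1 with 2.58. Families 1 to 3 were the largest group with 57 genes, of which 12 had no UMI and 5 were measured. Family 4 had 17 genes and 4 measured, and the sterol and bile acid enzymes 5 genes and 2 measured. None of the 6 steroid hormone, 4 vitamin D and 2 retinoic acid enzymes was measured, and the remaining gene, Cyp20a1, was. Together the 92 genes held 163 CPM (95% interval 160 to 166) in the wild-type cells. The p63-KO sum was 148 CPM (146 to 151), with other genes leading it.

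The libraries were compared over all epithelial-like cells, which asks how the P450 genes stand where p63 is targeted. Cyp3a13, Cyp2a5, Cyp2t4 and Cyp4f39 were lower in p63-KO by 5.26 to 58.7 times, and Cyp7b1 and Cyp20a1 were higher by 3.03 and 2.33 times. The other 6 measured genes lay within 2-fold. So 2 of 12 were at least 2-fold higher and 4 of 12 at least 2-fold lower, where 14.9% of the 11764 measured genes were higher and 8.84% lower by that much. The median log2 ratio, taken with 1 CPM added to each level, was -0.30 over the 12 genes and -0.02 over all measured genes. With 12 genes these shares are a description only.

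**Figure D1:**
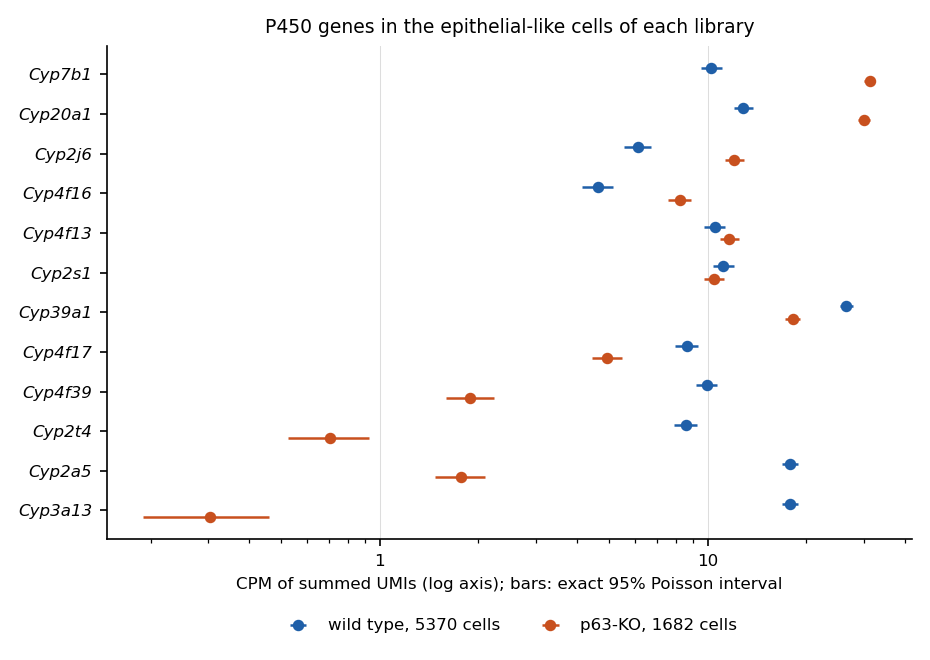
Levels of the 12 measured P450 genes in epithelial-like cells, as CPM of the summed UMIs on a log axis, with wild type in blue, p63-KO in orange and bars for the exact 95% Poisson intervals. The 4 lowest rows, Cyp4f39, Cyp2t4, Cyp2a5 and Cyp3a13, have p63-KO points under 2 CPM and wild-type points from 8.58 to 17.8 CPM.

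The 250 bases upstream of the RefSeq start of the 4 genes that were lower in p63-KO are shown because these genes differed in the same direction between the libraries. They are taken 5′ to 3′ on the strand of the gene from RefSeq on GRCm38.p6. For Cyp2a5 the last 34 bases were left off, since the annotation used here already places them in the gene. Cyp3a13 is at chr5:137921620-137921869 on the minus strand. On the plus strand lie Cyp2a5 at chr7:26835089-26835304, Cyp2t4 at chr7:27153464-27153713 and Cyp4f39 at chr17:32452473-32452722. Capitals mark matches on either strand to 3 short motifs, the core GCGTG read by the aryl hydrocarbon receptor, the half-site GTTGCC of RFX factors and the AP-1 site TGANTCA.
Cyp3a13: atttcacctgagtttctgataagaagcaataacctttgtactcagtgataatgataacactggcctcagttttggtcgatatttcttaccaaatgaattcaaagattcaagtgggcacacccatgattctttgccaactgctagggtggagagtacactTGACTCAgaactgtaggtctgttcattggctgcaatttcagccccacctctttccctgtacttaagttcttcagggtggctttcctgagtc
Cyp2a5: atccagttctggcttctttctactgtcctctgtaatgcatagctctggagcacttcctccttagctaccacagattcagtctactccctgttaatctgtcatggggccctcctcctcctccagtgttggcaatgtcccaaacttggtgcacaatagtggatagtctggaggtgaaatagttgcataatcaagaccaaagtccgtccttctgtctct
Cyp2t4: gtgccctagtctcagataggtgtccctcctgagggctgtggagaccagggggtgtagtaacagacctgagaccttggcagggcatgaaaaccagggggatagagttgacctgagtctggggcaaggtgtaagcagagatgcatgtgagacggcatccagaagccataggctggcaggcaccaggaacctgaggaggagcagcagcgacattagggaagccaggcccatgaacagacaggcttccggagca
Cyp4f39: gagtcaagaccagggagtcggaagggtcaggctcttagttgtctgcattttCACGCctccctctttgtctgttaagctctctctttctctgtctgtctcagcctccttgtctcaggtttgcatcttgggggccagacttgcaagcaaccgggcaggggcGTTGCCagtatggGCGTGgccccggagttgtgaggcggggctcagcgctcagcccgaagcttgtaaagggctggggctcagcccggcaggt
In these letters Cyp3a13 had 1 AP-1 match, Cyp4f39 had 2 GCGTG matches and 1 GTTGCC match, and Cyp2a5 and Cyp2t4 had none. Of all 32817 RefSeq promoter windows of 250 bases, 28.1% held GCGTG, 10.4% GTTGCC and 6.75% TGANTCA. Among the 81 windows matched to 71 of the P450 genes, 16 held GCGTG, 8 GTTGCC and 5 TGANTCA. No motif contains another, though adjoining matches can share end letters. A match is a run of letters and was not tested as a binding site.

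Among the enzymes of families 1 to 3, Cyp3a13 showed the widest gap between the libraries. This member of the CYP3A subfamily, which handles many drugs and steroids, lies on the minus strand at chr5:137892932-137921619 (mm10). It had 1221 UMIs or 17.8 CPM (16.8 to 18.8) in wild type and 22 UMIs or 0.303 CPM (0.190 to 0.459) in p63-KO, 58.7-fold lower (38.6 to 94.0). Each of the 10 wild-type subclusters had it, from 8.74 CPM in the ciliated-like cells to 30.1 CPM in subcluster 6, a basal-like group led by Zbtb16, Edaradd and Tenm2. In p63-KO the highest of 11 subclusters had 0.659 CPM, from 2 UMIs, so these levels did not overlap between the libraries. Counting error is left out of that statement, and the share of all genes without such overlap was not counted. With each cell thinned to 2000 UMIs, a Cyp3a13 UMI was kept in 3.26% of 5283 wild-type cells (2.79 to 3.77) and in 0.121% of 1658 p63-KO cells (0.0146 to 0.435). Only 1 Cyp3a13 UMI, or 0.175 CPM, was found in the 510 fibroblast-like cells. The gene Gm15502 overlaps Cyp3a13 on the same strand, so reads there cannot be assigned with certainty.

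Cyp3a13 also differed inside the wild-type library between cells with Xist RNA alone and cells with Y-linked RNA alone. It stood at 13.95 CPM (12.9 to 15.1) in 3339 cells with Xist RNA and at 27.0 CPM (24.6 to 29.6) in 1460 cells with Y-linked RNA, a ratio of 1.94 (1.71 to 2.19). In the basal layer the levels were 15.4 and 29.9 CPM, and above it 13.0 and 25.1 CPM, so the ratio was 1.94 in either layer. The number of embryos in the pool is not given, so sex and embryo cannot be told apart. The gap to p63-KO was wide in both kinds of cells, where p63-KO had 0.360 and 0.200 CPM.

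**Figure D2:**
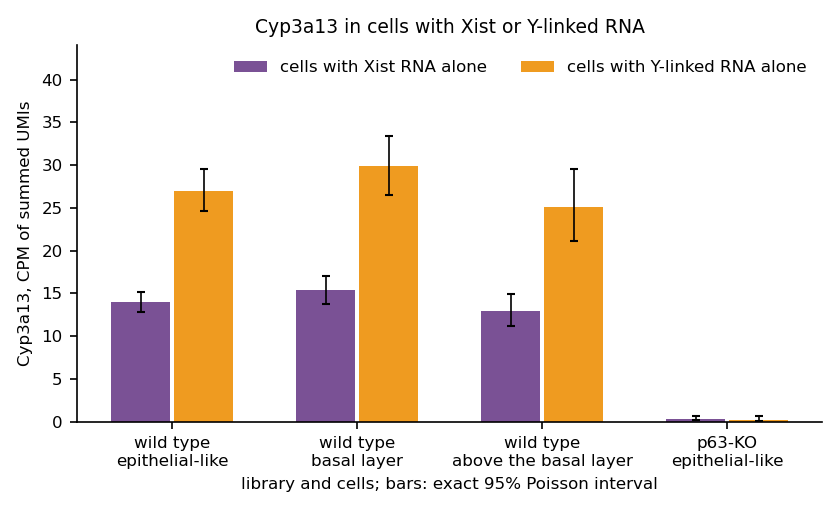
Cyp3a13 as CPM of summed UMIs in cells with Xist RNA alone (purple) and cells with Y-linked RNA alone (orange), for the libraries and wild-type layers on the horizontal axis, with exact 95% Poisson intervals. The orange bars reach 25.1 to 29.9 CPM in wild type against 13.0 to 15.4 for the purple ones, and both are under 1 CPM in p63-KO.

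Cyp2a5, the mouse coumarin hydroxylase and a member of the subfamily that acts on nitrosamines, was highest in the superficial cells. The gene lies on the plus strand at chr7:26835305-26843548. It had 1219 UMIs or 17.8 CPM in wild type and 128 UMIs or 1.77 CPM in p63-KO, which was 10.1-fold lower (8.39 to 12.2). In wild type 1047 of its 1219 UMIs came from the 656 superficial squamous-like cells, which are led by Ltf, Psca and Cnfn and had 72.4 CPM (68.1 to 76.9). The 33 ciliated-like cells came next with 22.7 CPM (26 UMIs), the suprabasal squamous-like cells had 13.9 CPM and the basal-like subcluster 1 had 0.276 CPM. A Cyp2a5 UMI was present in 34.8% of superficial cells (31.1 to 38.5), at a median of 17577 UMIs per cell, and in 0.268% of the cells of subcluster 1, at 9484. After thinning to 2000 UMIs the shares were 11.1% of 650 cells and 0 of 1457 cells, where the exact interval reaches 0.253%. Its transcripts were unevenly spread within the superficial cells, since the 66 cells with the most held 70.4% of the UMIs and up to 35 were counted in 1 cell. For Cyp4f39 in the same cells the top 66 held 54.8% and the most in 1 cell was 6.

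In p63-KO the 177 squamous-like cells had no Cyp2a5 UMI. The wild-type cells above the basal layer had 1172, or 50 CPM, at least 105-fold higher when the p63-KO group is set at 3 UMIs in all. Most of the p63-KO UMIs of the gene were in the mucous secretory-like subcluster 6, with 10.4 CPM from 83 UMIs, and the ciliated-like cells, with 9.81 CPM from 31 UMIs. Of those 83 UMIs, 34 came from 1 cell and 80 from 13 cells. Cells with Xist RNA alone had 87 of the p63-KO UMIs (2.41 CPM) and cells with Y-linked RNA alone had 2 (0.200 CPM). Sex, embryo and the mix of subclusters cannot be told apart in this split, and few cells held most of the UMIs. Of the runs of 31 bases in its last 500 transcript bases, 20.9% also occur in Cyp2a4, whose own count was 0 UMIs, so the assignment between the 2 genes is uncertain.

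Cyp2t4 had its highest level, and 192 of its 588 wild-type UMIs, in 1 group of wild-type basal-like cells. It lies on the plus strand at chr7:27153714-27158668, 20054 bases from Cyp2f2, and overlaps Egln2 on the other strand. It had 588 UMIs or 8.58 CPM in wild type. The p63-KO cells had 51 UMIs or 0.703 CPM, a level 12.2-fold lower (9.15 to 16.6). The basal-like subcluster 6 stood out with 42.8 CPM (36.9 to 49.3), followed by 15.4 CPM in subcluster 4, an unnamed group between the layers led by Mctp1 and Notch1. The other wild-type subclusters had 1.31 to 9.02 CPM. In subcluster 6 the gene was patchy, with 183 of 192 UMIs in 47 of 467 cells, whereas Cyp3a13 had 94 of 135 UMIs in its own top 47 cells. The highest p63-KO value, 1.62 CPM in subcluster 11, came from 1 UMI. The neighbouring Cyp2f2, a naphthalene-oxidising enzyme typical of airway club cells, was far higher and stood at 1569 CPM in wild type and 1425 CPM in p63-KO, a ratio far from that of Cyp2t4.

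Cyp2j6, of a subfamily with enzymes of arachidonic acid epoxidation, had 6.11 CPM (419 UMIs) in wild type. In p63-KO it had 12.1 CPM (875 UMIs), 1.98-fold higher (1.76 to 2.24). Its log2 ratio of 0.88 fell to 0.44 with cells thinned to 2000 UMIs. Cyp2s1 is an epithelial enzyme known to respond to the aryl hydrocarbon receptor. Over all epithelial-like cells together it was nearly level, with 11.2 CPM (10.4 to 12.0) and 10.5 CPM (9.74 to 11.2). The ciliated-like cells held 91 of its 766 UMIs in wild type and 279 of its 759 UMIs in p63-KO. Cells with Y-linked RNA alone had 12.0 and 6.98 CPM, and those with Xist RNA alone 10.8 and 11.4 CPM. The level of Cyp2s1 within each library varied far more, as described for the ciliated-like cells. Cyp2w1, under the limit for measured genes, had 3.98 CPM (273 UMIs) in wild type and 0.772 CPM (56 UMIs) in p63-KO.

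The 4 measured genes of family 4 belong to the Cyp4f subfamily and lie with 4 more Cyp4f genes between positions 32452723 and 32947402 of chromosome 17. Cyp4f39, the mouse counterpart of the human enzyme that makes omega-hydroxy ceramides of the skin barrier, had 681 UMIs or 9.93 CPM (9.20 to 10.7) in wild type. In p63-KO it had 137 UMIs or 1.89 CPM (1.59 to 2.23), 5.26-fold lower (4.37 to 6.36). Its neighbours had smaller differences, in both directions. Cyp4f17, which starts 12730 bases beyond it, had 8.65 CPM (593 UMIs) in wild type, and its p63-KO level of 4.94 CPM (358 UMIs) was 1.75-fold lower. Cyp4f16 had 4.62 and 8.23 CPM, 1.78-fold higher in p63-KO. Cyp4f13, at the far end of the cluster, had 10.5 and 11.7 CPM. Some of their 3' sequence is shared with other genes, from 2.55% of 31-base runs in Cyp4f17 to 12.3% in Cyp4f13, and none in Cyp4f39.

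Of the 5 sterol and bile acid enzymes Cyp7a1 and Cyp8b1 had no UMI and Cyp46a1 had 0.452 and 0.276 CPM, which leaves Cyp7b1 and Cyp39a1. Cyp7b1, which hydroxylates oxysterols, had 704 UMIs or 10.3 CPM in wild type and 2259 UMIs or 31.2 CPM in p63-KO, 3.03-fold higher (2.79 to 3.31). Its level in p63-KO epithelial subclusters ran from 4.32 CPM in the ionocyte-like subcluster 7 to 49.1 CPM in the neuroendocrine-like subcluster 3. Of the 11 subclusters, 10 were above the wild-type mean, which includes the cells above the basal layer, where Cyp7b1 was lower. In the wild-type basal layer it had 16.7 CPM in cells with Xist RNA alone and 16.8 CPM in cells with Y-linked RNA alone. It made up 12.0% of a summed P450 level of 199 CPM in the wild-type basal-like subcluster 6. In the p63-KO subcluster 11 it made up 14.9% of 120 CPM, so subcluster levels overlapped between the libraries. Cyp7b1 was higher still in fibroblast-like cells, at 270 CPM, and p63-KO epithelial-like cells had 11.5% of that level. For the fibroblast collagens Col1a1 and Col3a1 the corresponding shares were 0.331% and 0.419%, and for Lum 0.466%. Dcn was the exception among the fibroblast markers with 8.09%. The 8 fibroblast markers together stood at 49.5 CPM in wild-type epithelial-like cells (4.34 to 118 by subcluster). In those of p63-KO they stood at 567 CPM (291 to 1216), and none was at 0. Most of either sum was Dcn, with 35.3 CPM in wild type and 416 CPM in p63-KO. Dcn was also among the leading genes of the wild-type basal-like subcluster 1. What part fibroblast RNA had in the Cyp7b1 difference was not tested. Cyp39a1, which hydroxylates 24-hydroxycholesterol, had 26.5 CPM (1815 UMIs) in wild type, the highest level of the 92 genes there, and 18.2 CPM (1317 UMIs) in p63-KO.

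Cyp39a1 varied more within each library than between them. In wild type the cycling subcluster 8, led by Ube2c, Nusap1 and Top2a, had 49.9 CPM (44.8 to 55.4), against 17.6 CPM in the basal-like subcluster 6. In p63-KO the neuroendocrine-like subclusters 3, 8 and 11 had 2.31, 3.97 and 8.09 CPM, and the other 8 had 15.0 to 26.3 CPM. Cyp20a1, an enzyme without a settled substrate, had 12.8 CPM (880 UMIs) in wild type and 29.9 CPM (2169 UMIs) in p63-KO, 2.33-fold higher (2.15 to 2.52). On the same strand 6030460B20Rik overlaps Cyp20a1, Gm25783 overlaps Cyp39a1 and Gm23686 overlaps Cyp7b1, so reads there cannot be assigned with certainty. The levels of Cyp20a1 were 5.24 to 16.0 CPM across wild-type subclusters and 15.2 to 35.2 CPM across those of p63-KO. The ciliated-like cells were lowest in both libraries. Those of p63-KO, at 15.2 CPM, lay within the wild-type range. Each of the other p63-KO subclusters was above each of the wild-type ones in level, with counting error left aside. The share of all genes separated in this way was not counted.

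The layers of the wild-type epithelium were then compared within the 1 wild-type library. The basal layer was taken as 3386 cells of basal-like and cycling basal-like subclusters, and the cells above it as 1313 suprabasal and superficial squamous-like cells. The P450 genes were kept out of the genes used to cluster. Cyp2a5 and Cyp4f39 were far higher above the basal layer, and Cyp7b1, Cyp2s1 and Cyp2t4 were lower there. That made 2 of 12 measured genes at least 2-fold higher and 3 of 12 at least 2-fold lower, against 12.0% and 24.6% of 11151 measured genes. The median log2 ratio was -0.32 over the 12 genes and -0.37 over all. With TMM factors the median of all genes moved up by 0.37, the shares became 17.4% higher and 15.4% lower, and the median of the P450 genes became 0.14. On that scale 11 members were measured, 2 at least 2-fold higher and 2 lower, and Cyp2t4 no longer passed 2-fold.

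Cyp4f39 had 26.2 CPM (613 UMIs) above the basal layer and 0.298 CPM (11 UMIs) in it, 87.6-fold higher (48.6 to 176). It stood at 4.39 CPM in the between-layer subcluster 4, 37.0 CPM in the suprabasal and 19.4 CPM in the superficial cells. Cyp2a5 in the same 3 groups had 0.844, 13.9 and 72.4 CPM, so its highest level was in the superficial and that of Cyp4f39 in the suprabasal cells. The other between-layer group, subcluster 9 (70 cells), was not low in Cyp4f39. There Cyp4f39 made up 15.6% of a summed P450 level of 129 CPM. Above the basal layer Cyp2a5 had 50 CPM against 0.353 CPM, 142-fold higher (82.6 to 267). Cyp7b1 had 1.54 CPM (36 UMIs) above the basal layer and 16.8 CPM (620 UMIs) in it, 10.95-fold lower (7.82 to 15.8). Cyp2s1 had 4.78 and 12.8 CPM, 2.69-fold lower, and Cyp2t4 4.27 and 10.6 CPM, 2.48-fold lower. Neither passed 2-fold when each cell was put in the layer with the larger summed marker list, where the log2 ratios were -0.64 for Cyp2s1 and -0.60 for Cyp2t4. Cyp3a13 had 17.1 CPM above and 19.5 CPM in the basal layer, so the gene was present in both. For Cyp3a13, Cyp39a1 and Cyp2j6, all within 2-fold, the direction turned with TMM factors.

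**Figure D3:**
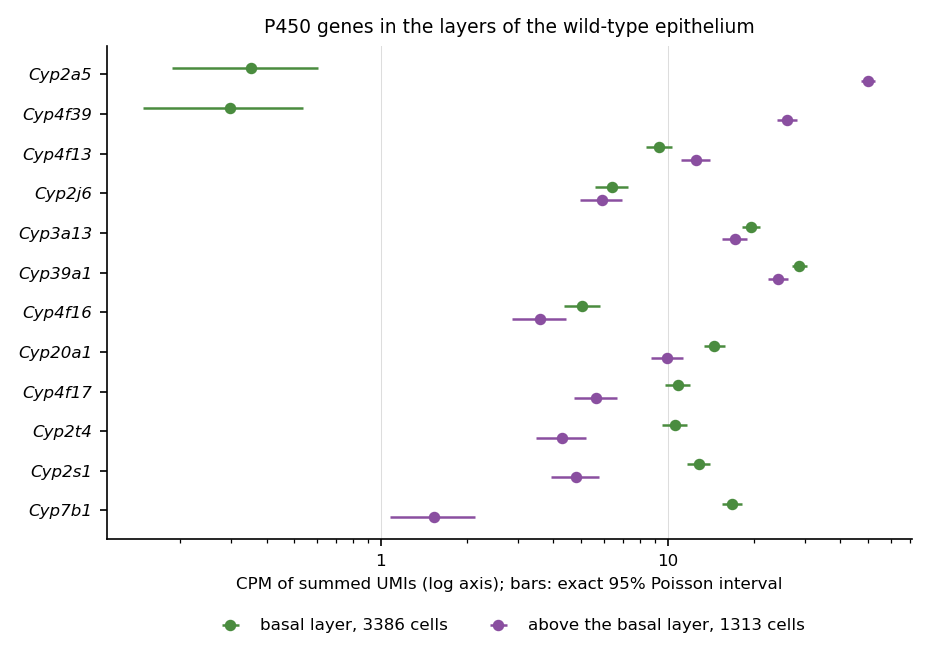
Levels of the same 12 genes in the wild-type basal layer (green) and above it (purple), as CPM of summed UMIs on a log axis with exact 95% Poisson intervals. Cyp2a5 and Cyp4f39 at the top have green points under 1 CPM and purple points at 50 and 26.2 CPM, and Cyp7b1 at the bottom has the widest gap the other way.

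The squamous-like cells of p63-KO were set beside the wild-type cells above the basal layer. Of 11 measured members, 4 were at least 2-fold higher and 3 at least 2-fold lower, where 13.4% and 8.44% of 10615 genes were. Cyp7b1 stood at 20.1 CPM (127 UMIs) in the p63-KO cells and 1.54 CPM in wild type, 13.1-fold higher (8.98 to 19.5), and Cyp20a1 at 26.8 and 9.98 CPM. Cyp4f39 stood at 4.12 CPM (26 UMIs) and 26.2 CPM, 6.35-fold lower (4.29 to 9.80). Cyp3a13 had 2 UMIs or 0.317 CPM in the p63-KO cells and 17.1 CPM in wild type. The 2 classes are not the same cells, since suprabasal and superficial markers in p63-KO summed to at most 10932 and 551 CPM in any subcluster, and to 37507 and 4268 CPM in wild type.

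The ciliated-like cells, 33 in wild type and 55 in p63-KO, were set beside the other epithelial-like cells of their library, and Cyp2s1, Cyp2b10 and Cyp4v3 were higher in them in both libraries. Cyp2s1 had 79.5 CPM (91 UMIs, 64.0 to 97.6) in the wild-type and 88.3 CPM (279 UMIs, 78.2 to 99.2) in the p63-KO ciliated-like cells, so the intervals overlapped. Against the other epithelial-like cells of the same library it was 7.94-fold (6.31 to 9.90) and 12.7-fold (10.96 to 14.8) higher. Cyp2b10, the phenobarbital-inducible enzyme, had 24.5 CPM (28 UMIs) and 20.2 CPM (64 UMIs), where the other cells had 0.341 and 0.981 CPM. Of the runs of 31 bases in its last 500 transcript bases, 11.9% also occur in Cyp2b13. That gene had 8 UMIs in all kept cells, and the assignment between the 2 genes is uncertain. Cyp4v3, a fatty acid hydroxylase, had 18.3 CPM (21 UMIs) and 12.7 CPM (40 UMIs), against 3.65 and 1.86 CPM. It was not particular to these cells, since it was also at least 2-fold higher in the p63-KO ionocyte-like subcluster 7. In wild type 3 of 14 measured members were at least 2-fold higher in these cells and 3 lower, with 17.2% and 8.28% of 12031 genes, so the share higher was near that of all genes. In p63-KO 4 of 11 were higher and 1 lower, with 14.2% and 3.49% of 12183 genes. The 4 were the same 3 and Cyp2a5. Cyp2b10 and Cyp4v3 in both libraries, and Cyp2a5 in p63-KO, reached 5 CPM in these comparisons only in the ciliated-like cells. They could not have been counted as lower there.

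**Figure D4:**
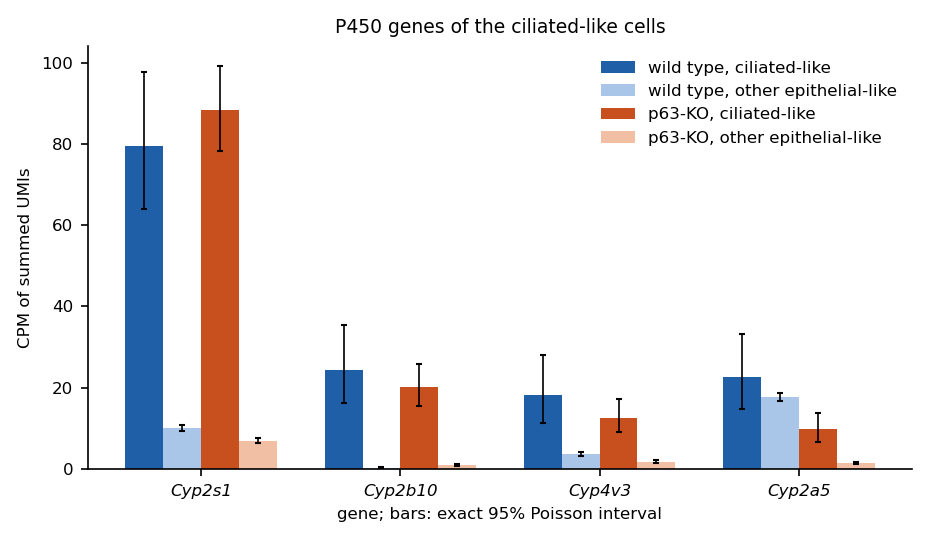
CPM of summed UMIs of 4 P450 genes in ciliated-like cells (dark bars) and the other epithelial-like cells (pale bars) of wild type (blue) and p63-KO (orange), with exact 95% Poisson intervals. Cyp2s1 stands at 79.5 and 88.3 CPM in the dark bars, and Cyp2b10 at 24.5 and 20.2 CPM with pale bars near 0.

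The ciliated-like cells were also compared between the libraries. Cyp3a13 had 8.74 CPM (10 UMIs) in wild type and 0.316 CPM (1 UMI) in p63-KO. Cyp20a1 had 5.24 CPM (6 UMIs) and 15.2 CPM (48 UMIs), 2.90-fold higher with an interval of 1.24 to 8.28. Of 13 measured members 3 were higher and 3 lower in p63-KO, where 11.5% and 7.47% of 12442 genes were. The 6 were Cyp20a1, Cyp7b1 and Cyp4f16, and Cyp3a13, Cyp2a5 and Cyp4f39. For Cyp4f39 the counting interval of the fold, 0.746 to 7.62, includes no difference. After thinning, a Cyp2s1 UMI was kept in 9.38% of 32 wild-type (1.98 to 25.02) and 26.9% of 52 p63-KO ciliated-like cells (15.6 to 41.02).

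Among the p63-KO states, the ionocyte-like subcluster 7 (96 cells, which also carry cell cycle markers) was the only one with Cyp1a1 above 5 CPM. Cyp1a1, the classic target of the aryl hydrocarbon receptor, had 34 UMIs or 13.3 CPM (9.24 to 18.6) there, and 23 UMIs or 0.329 CPM in all other p63-KO epithelial-like cells. These 34 UMIs were in 18 cells, with at most 5 in 1 cell. The second ionocyte-like subcluster, number 9, had 12 UMIs or 2.39 CPM (1.24 to 4.18). In wild type there was 1 Cyp1a1 UMI in 5370 cells. Cyp2u1, a hydroxylase of long-chain fatty acids, showed the same order, with 10.6 CPM in subcluster 7, 4.59 CPM in subcluster 9 and 1.86 CPM over p63-KO. Counting all members, 4 of 10 measured were at least 2-fold higher and 2 lower in subcluster 7, with 12.0% and 16.3% of 11697 genes. The 4 were Cyp1a1, Cyp2u1, Cyp4v3 and Cyp4f16. Of these Cyp1a1, Cyp2u1 and Cyp4v3 reached 5 CPM only in subcluster 7, so they could not have been counted as lower there. Ahr was at 41.2 CPM in subcluster 7 and 43.6 CPM over p63-KO epithelial-like cells, and Tiparp, another target of the receptor, at 124 and 81.5 CPM. Tiparp was not highest there, since the neuroendocrine-like subclusters 8 and 3, with 0 and 1 Cyp1a1 UMIs, had 160 and 112 CPM.

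Cells outside the epithelium were described in the p63-KO library. The summed P450 level was highest there in fibroblast-like cells, at 435 CPM (418 to 453). Cyp7b1 made up 270 CPM of it. Against p63-KO epithelial-like cells, 3 of 10 measured members were at least 2-fold higher, Cyp7b1, Cyp2d22 and Cyp27a1, and Cyp2s1 was lower, where 20.5% and 21.0% of 12643 genes were. In this comparison Cyp2d22 and Cyp27a1 reached 5 CPM only in the fibroblast-like cells, so they could not have been counted as lower. Cyp2d22, of the subfamily that includes the human drug enzyme CYP2D6, had 21.8 CPM (125 UMIs) in fibroblast-like and 17.4 CPM (19 UMIs) in endothelial-like cells and 0.441 CPM in epithelial-like cells. Cyp27a1, the sterol 27-hydroxylase, had 12.6 CPM (72 UMIs) and 0.441 CPM. Smooth muscle or pericyte-like cells had Cyp7b1 at 139 CPM (212 UMIs) and Cyp4b1 at 13.7 CPM (21 UMIs). Cyp3a13, Cyp2a5, Cyp2b10 and Cyp4f39 had 0 or 1 UMI in the 510 fibroblast-like cells.

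**Figure D5:**
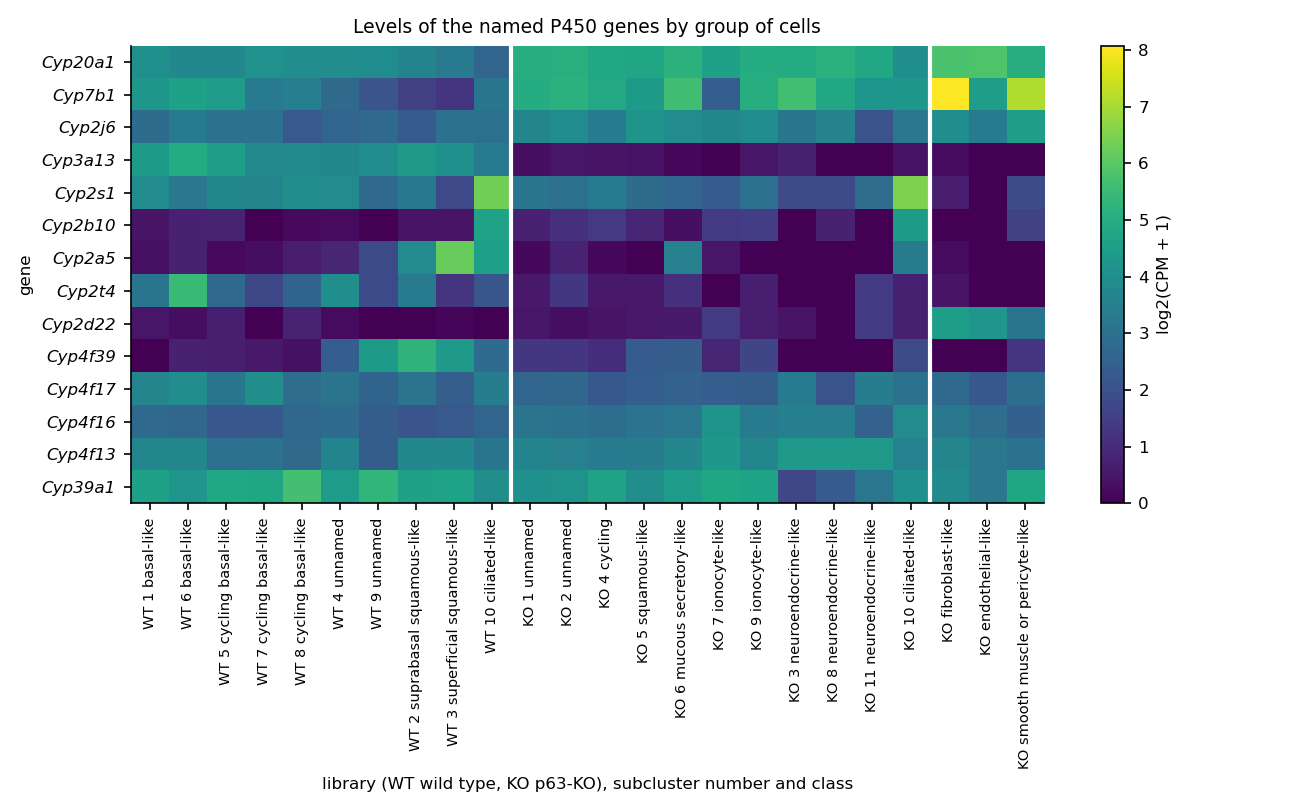
Heat map of log2(CPM + 1) for the 14 named P450 genes (rows) in the subclusters of the wild-type (WT) and p63-KO (KO) epithelium and in the p63-KO cells outside it (columns), with white lines between the 3 blocks. The row of Cyp3a13 is filled in WT columns and dark in KO columns, Cyp2s1 and Cyp2b10 are brightest in both ciliated-like columns, and Cyp7b1 peaks in the fibroblast-like column at 270 CPM.

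Members of the hormone and vitamin groups were scarce. Cyp17a1, the 17-hydroxylase of steroid synthesis, had 65 UMIs in wild type, of which 33 were in the suprabasal squamous-like cells (3.67 CPM, 2.53 to 5.16) and 28 in the superficial ones (1.94 CPM). The p63-KO epithelial-like cells had 5. Cyp2r1, a vitamin D 25-hydroxylase, had 2.58 and 2.06 CPM, Cyp27b1 0.102 and 0.262 CPM, and Cyp26b1, which breaks down retinoic acid, 0.948 and 0.676 CPM. The epithelial-like cells behind these values held 68566812 UMIs (wild type) and 72497854 UMIs (p63-KO), where 3 UMIs correspond to 0.0438 and 0.0414 CPM.

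Genes that work with the P450 enzymes were read from lists chosen beside the members. Of the reductases and redox partners 8 of 9 were measured, and 0 were 2-fold higher or lower in p63-KO, against 14.9% and 8.84% of all measured genes. Por stood at 333 CPM (wild type) and 402 CPM (p63-KO). The corresponding levels of Cyb5a, which tunes many P450 reactions, were 267 and 141 CPM. Between the layers 2 of 8 were at least 2-fold higher above the basal layer, against 12.0% of all measured genes, Por with 543 against 203 CPM and Fdx1 with 187 against 61.7 CPM. In the aryl hydrocarbon receptor pathway 5 of 7 were measured and 0 passed 2-fold between libraries. Ahr had 54.4 CPM above the basal layer and 21.4 CPM in it, and Arnt2, a partner of bHLH-PAS factors, had 0.939 and 21.1 CPM.

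Of the nuclear receptors 5 of 13 were measured. Of these, 3 had less than 50% of their wild-type level in p63-KO, where 8.84% of all measured genes did. They were Ppara with 14.4 and 4.12 CPM, Vdr with 5.88 and 1.70 CPM and Rxra with 23.6 and 11.5 CPM. The epoxide hydrolases and fatty acid oxygenases, whose substrates overlap those of family 4, had 7 of 12 measured. Between libraries 3 were at least 2-fold lower, against 8.84% of all measured genes, Alox15 with 143 and 30.4 CPM, Alox12b with 6.36 and 0.855 CPM and Ephx3 with 7.44 and 1.64 CPM. The prostaglandin synthase Ptgs1 was higher, with 1.78 and 17.8 CPM. In the layer comparison 6 were measured, and 5 of them were 2-fold or more above their basal level, against 12.0% of all measured genes (17.4% with TMM factors), with Alox15 at 390.01 against 4.37 CPM and Alox12b, an enzyme of skin barrier lipids, at 17.2 against 0.298 CPM.

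Flavin monooxygenases had 2 of 5 measured. Fmo5 was lower in p63-KO, with 9.04 and 2.52 CPM. Fmo2 had 58.2 CPM above the basal layer and 0.570 CPM in it, and between libraries it was level at 21.2 and 22.9 CPM. Glucuronosyl and sulfo transferases had 2 of 14 measured, with Sult2b1 at 25.4 and 14.7 CPM and Sult1a1 at 0.365 and 5.45 CPM. Of the P450 genes whose symbols fall outside the rule 1 of 3 was measured. This was Cyp51, a step of cholesterol synthesis, with 67.4 CPM (wild type) and 54.7 CPM (p63-KO). It had 110.5 CPM above the basal layer against 40.5 CPM in it. Of the 6 genes of the vitamin D pathway list, Vdr and Rxra were the 2 measured.

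By position, Cyp2s1, Cyp2b10, Cyp2a5 and Cyp2t4 lie within chr7:25802475-27158668, a stretch of 1356 kb with 12 of the P450 genes, of which 3 were measured and 7 had under 10 UMIs. Their highest levels were in different cells. Cyp2s1 and Cyp2b10 were highest in ciliated-like, Cyp2a5 in superficial squamous-like and Cyp2t4 in basal-like cells of wild type. All 92 members matched the annotation and are protein-coding there.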

How the data were processed

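Droplet libraries of esophageal epithelium at stage E18.5, 1 wild type and 1 p63-KO, were used. The authors deposited raw UMI counts per gene and barcode, made with Cell Ranger 7.1.0 on mm10 per the submitters' processing notes. Not given in the sources used here are the annotation release and how reads in introns were handled. Per the labels' protocols the muscle was removed before dispase and trypsin digestion.

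A barcode was kept from 500 genes and 1000 UMIs upward if no more than 10% of its UMIs were mitochondrial, 5787 of 6034 in wild type and 2422 of 2821 in p63-KO (76472445 and 86504624 UMIs in all). Doublets were scored by simulated neighbours and 268 and 47 cells removed, at 0.8% per 1000 cells. Of 100 planted doublets 43 and 51 were called, so some remain. Cells were clustered jointly (2000 variable genes, 30 components, 20 neighbours, Leiden resolution 1), and epithelial-like cells again by library at 0.6, without the P450 genes (leidenalg 0.10.2, igraph 0.11.9, scikit-learn 1.9.0, Python 3.11.15). Names came from fixed markers, at least 3 in at least 25% of the cells. For subclusters, other than the wild-type basal ones, these markers also had to be at least 2-fold above the library's other epithelial-like cells. The wild-type layer limits were set after seeing the data: a basal subcluster had at least 3 basal markers in 25% of its cells and less than 50% of the mean suprabasal marker CPM.

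UMIs were summed per group of cells and scaled to CPM. A gene was measured from 5 CPM in either group and counted as higher or lower from 2-fold. Intervals are exact at 95% (Poisson for CPM, conditional binomial for folds, Clopper-Pearson for shares of cells), and a count of 0 was set at 3 UMIs for a lower bound. Cells were thinned to 2000 UMIs for shares, and 87 and 24 shallower epithelial-like cells were left out. The calling step was tested on simulated data. TMM factors came from edgeR 4.0.16 and served as an alternative scale only. Coordinates are from GENCODE M21 on mm10.

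Named are members with at least 5 CPM in either epithelium, or 20 CPM and 10 UMIs in a class of at least 50 cells, 14 genes in all, plus up to 4 genes of each other list with at least 20 CPM. Cyp1a1, Cyp2u1, Cyp2w1, Cyp4v3, Cyp17a1, Cyp2r1, Cyp27a1, Cyp27b1, Cyp4b1, Cyp26b1 and listed genes under 20 CPM were named after their values were seen. The members and lists were chosen with earlier results of these data known. Alternatives varied the added CPM, the limit for measured genes, the scale, the filters, the clustering and the cells used.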

Additional observations from a re-analysis of the deposited data

How the results depend on the processing

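The library comparison was repeated under 17 alternatives and the layer comparison under 15. The 4 restrictions to cells with Xist or Y-linked RNA, to cells other than ciliated-like ones and to cells below 2 times the median UMIs were chosen after seeing the data. No paired analysis was possible because each group had 1 library. Of 384 values of single genes, 318 stayed within the counting interval of the value reported, 66 moved outside it and 0 of the at least 2-fold differences changed sign.

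The medians over the members depend on which members count as measured. For the libraries the median log2 ratio was -0.30, and it was 1.16 with the limit at 20 CPM (3 genes), 0.020 with no limit (69 genes), -0.55 without the 50 most abundant genes in the total, -0.50 without ciliated-like cells and -0.74 when only male cells were used. For the layers it was -0.32, and it was 4.39 at 20 CPM and 0.14 with TMM factors. The count of members at least 2-fold higher in p63-KO went from 2 to 6 from 1 CPM and 32 with no limit, and the count lower from 4 to 18 with no limit and 0 at 20 CPM. Above the basal layer the count higher went from 2 to 10 with no limit. The count lower there went from 3 to 5 from 1 CPM, 22 with no limit, 0 at 20 CPM and 1 with layers set by the larger summed marker list. Shares of all genes at these other limits are not given here, so the counts cannot be set against a background. With no limit they also take in members with very few UMIs, and 36 of the 92 had only 1 to 9. The 4 genes lower and 2 higher in p63-KO kept their direction in all 17 alternatives, and Cyp3a13 ranged from -4.55 to -2.10 on the log2 scale. Cyp2s1 turned its direction in 3 of 17 and lay within 2-fold in the main comparison.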
